A study of Mus musculus with 3 samples.

Results

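Purinergic receptors and ectonucleotidases are the genes through which astrocytes sense extracellular ATP, ADP and adenosine and break the nucleotides down. The list holds 10 genes: the ATP-gated channel genes P2rx4 and P2rx7, the nucleotide receptor genes P2ry1, P2ry2, P2ry12 and P2ry14, the ecto-enzyme genes Entpd2 and Nt5e, and the adenosine receptor genes Adora1 and Adora2b. Of these 10 genes, 8 had at least 1 probe set annotated to that gene alone, 15 probe sets in all, out of 18194 genes and 45101 probe sets in the table. Adora1 and Adora2b had no such probe set in the annotation used and were not analysed here. Each gene took the value of its brightest probe set by mean signal, and the other probe sets are given beside it.

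The samples were astrocytes, labelled wild type, made in culture from mouse embryonic stem cells. The cells passed through embryoid bodies for 4 days and an ITSFn selection medium for 5 to 7 days, and neural precursors were then kept in FGF2 and EGF2. At 18 passages from the embryoid bodies, the growth factors were withdrawn and 5% FBS was added for 5 days. Total RNA of 3 samples was labelled with biotin and read on Affymetrix Mouse Genome 430 2.0 arrays, 1 sample each. With 1 condition on all 3 arrays there is nothing to contrast it with, and each gene was set against background. The labels name neither the embryonic stem cell line nor whether the samples were separate cultures, so p-values cover the spread among the 3 arrays alone, and it may be technical.

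Background was read from 78 genes of chemosensory receptors (smell, pheromones, trace amines and taste). Their 95th percentile, the limit of an array, was 3.99, 4.10 and 4.07 log2 units on replicates 1, 2 and 3. Their median level was 2.03, and the highest of them read 4.10, 4.78 and 5.19 on replicates 1, 2 and 3. Levels are given as the mean of 3 arrays in log2 signal ± SD, and a distance is the mean, over the arrays, of log2 signal less that array's limit. Probe sets differ in brightness, so a level or distance of one gene does not rank it against another, and a gene that did not pass is not shown to be absent. All 8 astrocyte markers were above background, with Gfap, the astrocyte intermediate filament, at 12.63 ± 0.12 and the water channel gene Aqp4 at 11.87 ± 0.10. All 6 neural precursor markers were too, among them Nes at 10.45 ± 0.60. Of 6 neuron markers 3 were above background, or 50%, against 58.3% over all genes tested. They were Syt1 at 7.24 ± 0.12, on 1 of 4 probe sets, Rbfox3 at 6.66 ± 0.30 and Tubb3 at 5.83 ± 0.65. Snap25, Stmn2 and Nefl were not. Of 5 endothelial markers 1 was above background, Kdr at 6.59 ± 0.46. In bulk samples, fewer cells of a type and less RNA per cell cannot be told apart.

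Cells release ATP as a signal to their neighbours. P2X receptors are cation channels that open when ATP binds, and P2Y receptors act through G proteins on calcium stores or on cyclic AMP. Ectonucleotidases on the cell surface then remove phosphates step by step until adenosine is left, which acts on its own receptors or is taken up. In astrocytes these genes are known for carrying calcium waves from cell to cell and for setting the level of adenosine around synapses.

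Of the 8 measured genes, 4 were above background: P2rx4, P2rx7, P2ry1 and Entpd2. P2ry2, P2ry12, P2ry14 and Nt5e did not pass (one-sided limma test of the distance, p adjusted by Benjamini-Hochberg over 18116 genes, threshold 0.05). Over all genes tested, 58.3% were called, so the members' share of 50% lies close to the background share. The median distance from the limit was 0.35 log2 units over the 8 genes and 1.76 over all genes tested. The call depends on how many probe sets a gene has, since the brightest stands for it: 41.7% of genes with 1 probe set were called, 79.4% of those with 3 and 85.1% of those with 4. Of the 5 members with 1 probe set, P2ry1 and Entpd2 passed. The 4 genes that passed lay above the limit on every array, and P2ry2, P2ry12 and P2ry14 lay below it on every array.

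**Figure D1:**
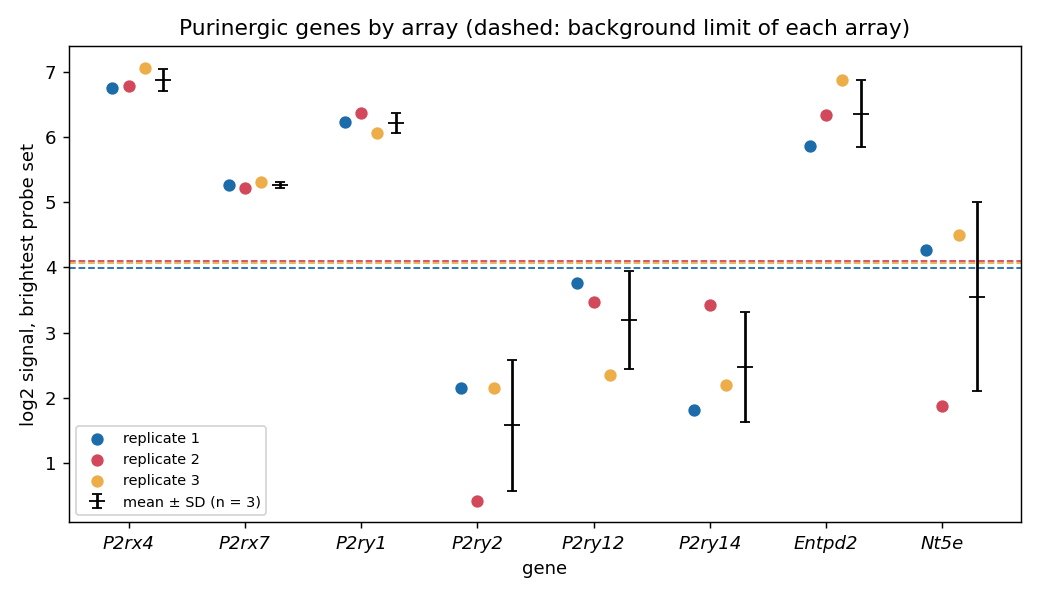
Log2 signal of the brightest probe set of each measured gene (y axis) on the 3 arrays, with the mean and SD (n = 3) in black and the background limit of each array as a dashed line in that array's colour. P2rx4, P2rx7, P2ry1 and Entpd2 lie above the limits on all 3 arrays, and Nt5e lies above on replicates 1 and 3 and at 1.88 on replicate 2.

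The promoters of these genes are shown because they differ in CpG content, which is set beside the calls. The sequences are from RefSeq (GRCm38.p6), each the 250 bases before the annotated start, 5′ to 3′, with CpG sites in capitals. They lie at P2rx4 chr5:122707294-122707543 on the plus strand, P2rx7 chr5:122643677-122643926 on the plus strand (the first of 2 annotated starts), P2ry1 chr3:61002535-61002784 on the plus strand, Entpd2 chr2:25395624-25395873 on the plus strand, P2ry12 chr3:59262986-59263235 on the minus strand and Nt5e chr9:88327359-88327608 on the plus strand.
P2rx4: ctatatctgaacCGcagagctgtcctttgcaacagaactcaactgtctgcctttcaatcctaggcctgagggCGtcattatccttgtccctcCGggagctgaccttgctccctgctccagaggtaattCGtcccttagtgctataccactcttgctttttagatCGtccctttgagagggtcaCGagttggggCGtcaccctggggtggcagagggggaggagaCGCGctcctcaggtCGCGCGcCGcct
P2rx7: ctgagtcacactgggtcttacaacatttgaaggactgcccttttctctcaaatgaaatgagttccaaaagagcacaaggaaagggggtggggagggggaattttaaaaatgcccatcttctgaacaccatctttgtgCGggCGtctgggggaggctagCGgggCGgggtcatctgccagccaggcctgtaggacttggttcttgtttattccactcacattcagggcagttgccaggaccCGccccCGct
P2ry1: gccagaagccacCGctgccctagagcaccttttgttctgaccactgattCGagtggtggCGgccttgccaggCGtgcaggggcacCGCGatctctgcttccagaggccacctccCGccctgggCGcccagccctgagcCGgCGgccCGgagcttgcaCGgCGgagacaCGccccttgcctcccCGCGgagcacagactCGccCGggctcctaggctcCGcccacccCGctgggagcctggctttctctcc
Entpd2: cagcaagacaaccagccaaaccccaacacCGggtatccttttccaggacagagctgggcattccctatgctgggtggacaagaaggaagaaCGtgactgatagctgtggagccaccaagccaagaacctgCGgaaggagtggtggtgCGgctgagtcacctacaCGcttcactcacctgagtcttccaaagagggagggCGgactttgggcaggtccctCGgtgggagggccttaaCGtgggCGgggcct
P2ry12: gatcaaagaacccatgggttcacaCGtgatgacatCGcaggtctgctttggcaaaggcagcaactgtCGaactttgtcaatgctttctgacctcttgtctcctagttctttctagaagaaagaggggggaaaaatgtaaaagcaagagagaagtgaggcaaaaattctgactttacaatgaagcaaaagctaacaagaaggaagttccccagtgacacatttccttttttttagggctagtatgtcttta
Nt5e: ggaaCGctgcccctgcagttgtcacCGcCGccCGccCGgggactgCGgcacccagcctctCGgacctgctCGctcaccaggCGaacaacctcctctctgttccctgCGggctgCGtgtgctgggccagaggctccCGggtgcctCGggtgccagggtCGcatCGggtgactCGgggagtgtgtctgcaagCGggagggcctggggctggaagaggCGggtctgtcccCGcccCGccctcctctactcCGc

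CpG sites were counted in windows of 300 bases, from 250 before to 50 after the start. For a gene with several starts, the window with the most CpG sites stands for it. Among all tested genes with a promoter in the table, the median was 23 CpG sites in the 8660 genes above background and 7 in the 5729 that were not. Among the members, the counts of genes that passed and of genes that did not overlapped. P2ry1 held 25 CpG sites and P2rx4 held 18, and both genes passed. Entpd2 held 13, and P2rx7 held 8 at its first start and 4 at its second, although both genes also passed. P2ry12 held 4, and none of the 4 windows of P2ry14 held more than 4. Nt5e held 23 and P2ry2 up to 30, and neither passed. These are descriptions of sequence beside signal, with no test.

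**Figure D2:**
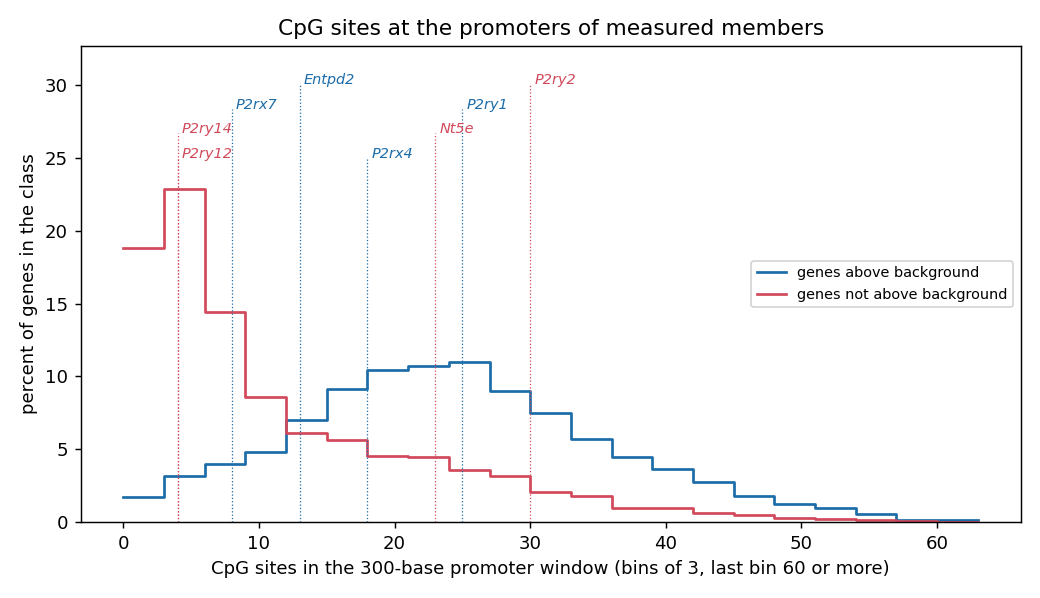
Percent of genes (y axis) by the number of CpG sites in the 300-base promoter window (x axis, bins of 3) for genes above background (blue) and not above it (red), with each measured member marked at its own count in the colour of its call. P2ry2 at 30 and Nt5e at 23 sit among CpG-rich promoters although neither passed, and P2rx7 at 8 passed.

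A set of 3 motifs was searched on both strands of these windows. GGGCGG, the GC box bound by Sp1-type factors, occurred in 35.7% of 32851 promoter windows. It was present in at least 1 window of P2rx4, P2rx7, P2ry1, P2ry2, Entpd2 and Nt5e and in no window of P2ry12 or P2ry14. TGANTCA, the letters bound by AP-1 factors such as Fos and Jun, occurred in 7.81% of all windows and, among measured members, in windows of P2rx7, P2ry14 and Entpd2. TTCNNNGAA, the STAT motif, occurred in 8.3% of all windows and in none of the members'. TGANTCA and TTCNNNGAA read the same on either strand, and matches to different motifs may overlap. The percents count single windows, while a member is named if any of its windows matched. P2rx7 and P2ry2 have 2 windows each and P2ry14 has 4, so the percents are not shares of genes. A match marks letters in a window and not a bound site.

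P2rx4 encodes a P2X channel that responds to low ATP and is found both at the surface and in lysosomes. Its brightest probe set, 1425525_a_at, read 6.76, 6.78 and 7.07 log2 units on replicates 1, 2 and 3, or 108, 110.1 and 134 in linear signal. The 3 arrays lay close together, all far above the limit, and the distance was 2.82 ± 0.14 (SE), a signal 7.05 times the limit (adjusted p = 0.00012, limma). The second, 1452527_a_at, read 6.75, 6.76 and 5.71 and also passed (adjusted p = 0.0026 over all probe sets, limma). On replicate 3 these probe sets moved apart, the first at its highest and the second at its lowest. The other probe sets of P2rx4, 1441772_at and 1446429_at, averaged 3.61 ± 0.35 and 3.40 ± 0.56, below the limit on all arrays. With the median over its 4 probe sets in place of the brightest, the distance of P2rx4 was 1.07 and it still passed.

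P2rx7 encodes the channel that needs high ATP and, in macrophages and microglia, drives release of interleukin-1. Its probe set 1439787_at read 5.26, 5.22 and 5.31 log2 units on replicates 1, 2 and 3. The SD of 0.05 was the smallest among the members, and 4.22% of genes above background had a smaller one. These SDs include the median shift of each array over genes above background. Relative to that shift, P2rx7 was at 0.18, -0.06 and -0.11, a wider spread than that of P2rx4, at 0.07, -0.10 and 0.03. The distance was 1.21 ± 0.12 (SE), a signal 2.32 times the limit (adjusted p = 0.0011, limma). On replicate 3 this probe set read 5.31, and the highest background gene read 5.19. The call rests on that probe set. 1419853_a_at read 4.51, 4.70 and 4.30, above the limit on each array but short of the threshold (adjusted p = 0.056 over all probe sets, limma). 1422218_at read 4.56, 5.00 and 3.07, below the limit on replicate 3 (adjusted p = 0.64, limma). With the median over the 3 probe sets, P2rx7 was at 0.59 from the limit and no longer passed (adjusted p = 0.054, limma). On the log2(intensity + 16) scale its distance was 0.74 and it passed.

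The 5 other P2X genes were P2rx1, P2rx2, P2rx3, P2rx5 and P2rx6, and 0 of them passed by limma, against 58.3% over all genes tested. None had an unadjusted p below 0.05. They have 1 to 3 probe sets each, and genes with 1 were called in 41.7% of cases and genes with 3 in 79.4%. P2rx6 was at 4.25 ± 0.40, above the limit on 2 of 3 arrays (adjusted p = 0.37, limma). P2rx3, a subunit of sensory neurons, was at 3.94 ± 0.39 and P2rx2 at 0.94 ± 0.81. The inflammasome is the complex that P2X7 is known to trigger in immune cells. Of 6 measured genes linked to it, 2 passed, or 33.3%, against 58.3% over all genes tested. Il18 and Txnip were above background at 8.51 ± 0.05 and 9.94 ± 0.21. Nlrp3, the sensor, Pycard, the adaptor, Casp1, the protease, and Il1b were at 3.89 ± 0.88, 3.19 ± 0.26, -0.55 ± 0.41 and 3.69 ± 0.63 and did not pass.

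P2ry1 encodes the ADP receptor that couples to Gq and releases calcium from stores. Its only probe set, 1421456_at, read 6.22, 6.36 and 6.06 log2 units on replicates 1, 2 and 3. All lay above the limit, by 1.99 to 2.27, and the distance was 2.16 ± 0.14 (SE), a signal 4.48 times the limit (adjusted p = 0.00024, limma). The other P2Y genes among the members read lower than the limit on each array.

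P2ry2 encodes a receptor for ATP and UTP, also coupled to Gq. Its probe set 1450318_a_at read 2.16, 0.42 and 2.15, well inside the range of the background genes, with a mean distance of -2.48. P2ry12 encodes the ADP receptor of platelets and microglia, which couples to Gi and is the target of clopidogrel. Its probe set 1431724_a_at read 3.76, 3.46 and 2.34, nearest the limit on replicate 1, where it lay at -0.23 from it. P2ry14 encodes the receptor for UDP-glucose. Its probe set 1424733_at read 1.80, 3.42 and 2.20, and replicate 2 was its highest array.

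The remaining P2Y genes, P2ry4, P2ry6, P2ry10 and P2ry13, were at 2.84 ± 1.97, 0.76 ± 1.17, 1.29 ± 1.98 and 3.87 ± 0.39, and 0 of 4 passed by limma. None had an unadjusted p below 0.05. P2ry1 was therefore the P2Y gene of 8 measured that passed. All 8 have 1 probe set, and 41.7% of genes with 1 were called, against 58.3% over all genes tested. P2ry12 and P2ry13 are best known from microglia. Whether the share of microglia bears on their signal was not tested, and P2rx7, which is known from microglia too, passed. The summed linear signal of the 14 microglia markers measured was 114, 135 and 112 on the 3 arrays. Of these markers 1 was above background, or 7.14%, against 58.3% over all genes tested. That member was Csf1r at 5.34 ± 0.18, above background on 1 of 3 probe sets, while Aif1, Itgam and Cx3cr1 were at 1.79 ± 1.62, 1.98 ± 1.19 and 3.08 ± 0.18. Gpr17, a receptor of oligodendrocyte precursors that is related to the P2Y family, was above background at 6.62 ± 0.33. Of the 7 oligodendrocyte lineage markers 3 passed, or 42.9%, against 58.3% over all genes tested. They were Gpr17 on its only probe set and Pdgfra and Sox10 on 1 of 3 probe sets each, Sox10 at a distance of 0.58. Cspg4, Mbp, Mog and Mag did not pass.

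Of 13 genes for G protein alpha subunits, the class through which P2Y and adenosine receptors signal, 11 were above background, or 84.6%, against 58.3% over all genes. All but Gna15 have 2 to 7 probe sets, and genes with 2 or more were called in 67.7% to 92.2% of cases, depending on their number. The Gq-type subunits Gnaq and Gna11, partners of P2Y1, were at 9.47 ± 0.32 and 9.47 ± 0.23, and Gna14 and Gna15 of the same class did not pass, at 4.33 ± 0.28 and 2.28 ± 1.77. The Gi-type subunits Gnai1 and Gnai2 were at 7.57 ± 0.32 and 11.86 ± 0.30. The median distance over these 13 genes was 4.85 log2 units.

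**Figure D3:**
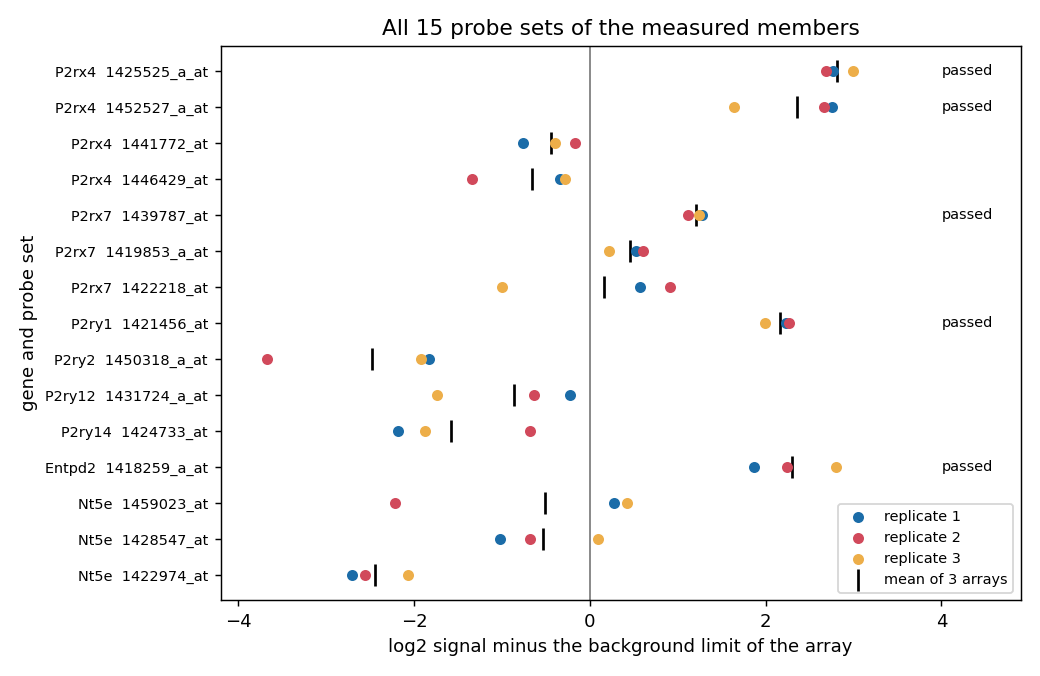
Log2 signal minus the background limit of the array (x axis) for each of the 15 probe sets of the measured genes, with points for the 3 arrays and a black bar for their mean. The word passed marks the 5 probe sets called by limma: 2 of 4 for P2rx4, 1 of 3 for P2rx7, and those of P2ry1 and Entpd2.

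Entpd2 encodes NTPDase2, an ecto-enzyme that turns ATP into ADP, the ligand of P2Y1, and is known in the adult mouse brain from precursor cells of the subventricular zone. Its only probe set, 1418259_a_at, read 5.86, 6.33 and 6.88 log2 units on replicates 1, 2 and 3, or 58.05, 80.7 and 118 in linear signal. All arrays lay above the limit, though they spread over 1.02 log2 units. The distance was 2.31 ± 0.24 (SE), a signal 4.94 times the limit (adjusted p = 0.0011, limma). The SD of 0.51 was wider than that of 93.3% of genes above background, whose median SD was 0.24. Relative to each array's median shift over genes above background, Entpd2 was at -0.32, -0.04 and 0.36.

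Nt5e encodes CD73, the enzyme that turns AMP into adenosine and a common surface marker of mesenchymal stromal cells. Its brightest probe set, 1459023_at, read 4.26, 1.88 and 4.50 log2 units on replicates 1, 2 and 3. Replicates 1 and 3 lay above the limit, by 0.28 and 0.43, and replicate 2 lay at -2.22 from it. The mean distance was -0.51 (adjusted p = 1, limma), and without replicate 2 it was 0.35 and still did not pass (adjusted p = 0.21, limma). The second probe set, 1428547_at, read 2.97, 3.41 and 4.17, so replicate 2 was not its low array, and 1422974_at read 1.28, 1.54 and 2.01. Of the 15 probe sets of the members, 5 passed, or 33.3%, against 52.2% of all 34871 probe sets tested. None of the 6 mesenchymal markers was above background by limma, against 58.3% over all genes tested, and 0 had an unadjusted p below 0.05. Among them were Col1a1 at 2.85 ± 0.50 and Thy1 at 4.19 ± 0.25.

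Other enzymes of the extracellular chain were measured for 8 of 11 listed genes. Of these, 3 passed, or 37.5%, against 58.3% over all genes tested. Entpd5 was at 7.90 ± 0.05 and Entpd6 at 7.27 ± 0.30. Both are known as NTPDases of the secretory pathway or in secreted form more than of the cell surface. Alpl, tissue-nonspecific alkaline phosphatase, which can remove phosphates down to adenosine, was at 5.30 ± 0.05 (adjusted p = 0.00087, limma). Entpd1, which encodes CD39 of microglia and vessels, was at 4.48 ± 0.34, above the limit on each array without passing (adjusted p = 0.091, limma). Entpd3, Entpd8, Enpp3 and Acpp were at 3.74 ± 0.67, 2.74 ± 1.25, 2.47 ± 0.95 and 2.88 ± 1.42 and did not pass.

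Of 8 measured genes of adenosine uptake and purine metabolism, 5 passed, or 62.5%, near the 58.3% over all genes tested. Adk, adenosine kinase, which astrocytes use to return adenosine to AMP, was at 10.71 ± 0.22, on 2 of its 6 probe sets. Pnp, purine nucleoside phosphorylase, was at 9.92 ± 0.01 and Ak1, an adenylate kinase, at 9.54 ± 0.21. The equilibrative nucleoside transporter genes Slc29a1 and Slc29a3 were at 5.59 ± 0.24 and 7.16 ± 0.45, and Slc29a2, at 4.37 ± 0.07, missed the threshold (adjusted p = 0.060, limma). Ada, adenosine deaminase, was at 4.02 ± 0.27 and Slc28a3, a concentrative nucleoside transporter, at 3.46 ± 0.33, and neither passed. Of the other adenosine receptors, Adora3 was measured, at 2.77 ± 1.42, and did not pass.

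Of the genes for nucleotide release, Panx1, a channel that lets ATP out, was above background at 6.47 ± 0.21 (adjusted p = 0.00025, limma). Slc17a9, the vesicular nucleotide transporter, was at 4.33 ± 0.09, above the limit on each array without passing (adjusted p = 0.088, limma). Panx2 and Panx3 were at 2.52 ± 1.86 and 2.81 ± 0.51. Over all 30 other purinergic genes measured, 9 passed, or 30%, against 58.3% over all genes tested. The median distance of the 30 was -0.15, against 1.76 over all genes tested. None of those 9 is a receptor for a nucleotide or for adenosine. The call depends on the number of probe sets, which ran from 1 to 3 among these receptor genes. Among the 9 it ran from 1, for Entpd6, Alpl, Slc29a1, Pnp and Panx1, to 6, for Adk and Entpd5.

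**Figure D4:**
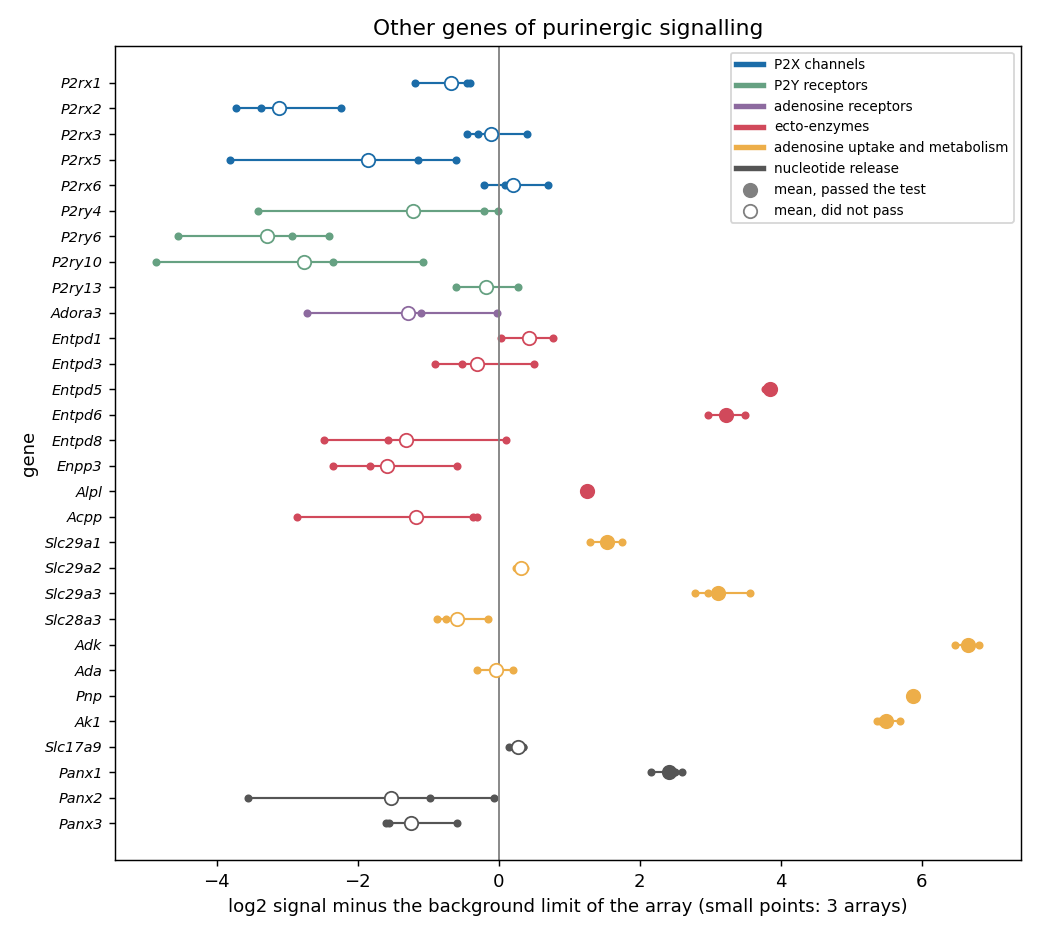
Log2 signal minus the background limit of the array (x axis) for 30 other genes of purinergic signalling, coloured by role, with small points for the 3 arrays and a large point for the mean, filled where the gene passed. The 9 filled points are ecto-enzymes, genes of adenosine uptake and metabolism, and Panx1, and no receptor is filled.

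The members that did not pass had wider SDs on the log2 scale than those that passed. The call itself uses the SD, and log2 without a pseudocount widens the spread of dim signals, so this difference is a description. The SDs were 1.0 for P2ry2, 0.75 for P2ry12, 0.84 for P2ry14 and 1.45 for Nt5e, against 0.05 to 0.51 for the 4 that passed. No array was the high or low one for all of them: replicate 2 was the lowest for P2ry2 and Nt5e and the highest for P2ry14, and replicate 3 was the lowest for P2ry12. Among the genes that passed, replicate 3 was the highest for P2rx4, P2rx7 and Entpd2 and the lowest for P2ry1. Replicate 3 was also the brightest array over all genes above background, whose median deviations were -0.18, 0.02 and 0.16 on replicates 1, 2 and 3. Relative to that shift, P2rx4 was at 0.07, -0.10 and 0.03, P2rx7 at 0.18, -0.06 and -0.11 and P2ry1 at 0.19, 0.13 and -0.32, so replicate 1 was then the highest array for all of these and replicate 3 was the highest for Entpd2 alone among the 4.

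**Figure D5:**
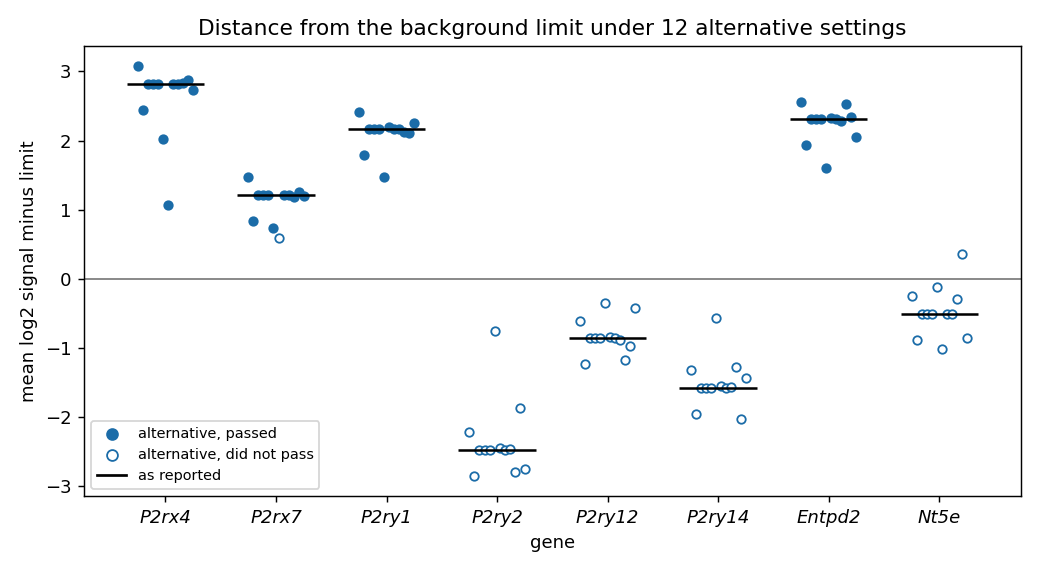
Mean log2 signal minus the background limit (y axis) for each measured gene, as reported (black line) and under 12 alternative settings (points, filled where the gene passed). P2rx4, P2ry1 and Entpd2 passed under every one of the 12, P2rx7 did not with the median of its probe sets, and Nt5e changed side of the limit without replicate 2. The setting that brings arrays to a common median could not move any point. Points also stayed at the reported distance under the dim-gene filter, under the changed prior and where probe sets shared between transcripts were dropped.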

How the data were processed

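The authors deposited linear intensities, 1 for each probe set on each array, made with GCOS 1.4 per the submitters' processing notes. For the scaling target and the algorithm settings, the sources used here give nothing. The median intensity was 20.02, 23.3 and 19.4 on the 3 arrays, whose number limits the precision. By the platform annotation, 34958 probe sets had 1 gene, 932 had more than that and were not used, and 9211 were unnamed. Log2 was taken with no pseudocount. Genes were tested in R 4.3.3 with limma 3.58.1 (lmFit, eBayes) on log2 intensity minus the limit of each array, with probe sets in a second fit against the same limits. The fit was tested on simulated data. Alternatives varied the limit, the probe sets used, the normalization, the pseudocount, the dim-gene filter, the replicates and the prior. The members and lists were chosen with earlier results of these data known. All members were named with every probe set, other purinergic and inflammasome genes freely, the first 6 measured of other lists by order, and the measured genes among the nearest 2 on either side of each member. Gpr17, Csf1r, Col1a1 and Thy1 come from such lists. As an exception, all 7 oligodendrocyte lineage markers were named. No gene was named for a pattern like a member's, since replicates of 1 group hold none.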

Additional observations from a re-analysis of the deposited data

How the results depend on the processing

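Across 12 alternative settings, 94 of 96 recomputed distances of the members kept their side of the limit and of the threshold. That count includes settings under which no member's distance changed. They were the common median, the dim-gene filter, the changed prior and the dropping of probe sets shared between transcripts. The common median left the adjusted p unchanged too, so it tests nothing here. The exceptions were P2rx7 at 0.59 (adjusted p = 0.054, limma) with the median over probe sets, and Nt5e at 0.35 without replicate 2, where leaving out each replicate gave -0.85 to 0.35. The cause was not tested. With log2(intensity + 16) distances shrank, to 0.74 for P2rx7 and -0.75 for P2ry2, with the same calls. The count of members above background was 4, and 3 with the median of probe sets. The other purinergic count ran from 8 to 12, the members' probe set count from 5 to 7 and the count over all genes from 9158 to 10900. No paired analysis was possible because all arrays form 1 group. The arrays come with no probe-level values here, so saturation and background of single probes could not be examined, and a gene near the limit can go unseen.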

Other observations

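Several members lie next to each other in the mouse genome (gene order of GRCm38.p6). P2rx7 and P2rx4 are neighbours on chromosome 5, and both were above background, as were the genes around them, Ift81 at 8.69 ± 0.27 and Camkk2 at 6.29 ± 0.22. P2ry12 and P2ry14 lie close together on chromosome 3 with P2ry13 and Gpr171, and none of these receptor genes passed. Igsf10, on the other side of P2ry12, was at 1.70 ± 1.28 and did not pass, while Med12l, in the same stretch, was above background at 7.00 ± 0.20. P2ry1 lies elsewhere on chromosome 3, between Mbnl1 at 9.88 ± 0.24 and Rap2b at 8.02 ± 0.16, both above background. P2ry2 and P2ry6 are neighbours on chromosome 7, and neither passed, though Fchsd2 beside them was at 8.30 ± 0.25. Around Nt5e on chromosome 9, which did not pass, Cep162, Tbx18, Snx14 and Syncrip all did, among them Snx14 at 8.47 ± 0.24 and Tbx18 at 5.39 ± 0.68. Around Entpd2 on chromosome 2, Uap1l1 and Npdc1 were above background at 7.80 ± 0.23 and 10.44 ± 0.17, and Sapcd2 and Fut7 were not, at 3.99 ± 0.90 and 3.06 ± 1.07. Farther out by 1 gene, Atp2a2 and Anapc5 near the P2X pair, Arhgef26 near P2ry1, and Arhgef17 and Atg16l2 near P2ry2 passed, and Sucnr1 near P2ry1 did not.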
